A study of Mus musculus with 66 samples.

Results

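The blood transcriptome of young mice was compared with a universal mouse reference RNA on the 11 two-colour arrays titled P28 normoxia, out of 66 arrays in the series. These were C57BL/6 pups assigned on postnatal day 7 to 21% oxygen, later kept in room air, whose blood was taken on postnatal day 28 (P28). Each array held total RNA from the mononuclear cell fraction of 1 mouse in one dye and the commercial reference RNA in the other. The mononuclear layer was taken from a density gradient, and no cell type was sorted afterwards. The arrays were chosen by their title alone. The quantity described throughout is the log2 ratio of the Cy3 to the Cy5 intensity of a probe, read as blood over reference, so that a value of 1 is a level 2-fold higher in blood. Litters are not given in the labels, so p-values measure the spread between these 11 mice. The paper lists fewer litters than 11 for its P28 normoxia pups, so some of these mice were litter mates.

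Circulating blood carries RNA from several sources. Reticulocytes, young red cells without a nucleus, keep messenger RNA for haemoglobin while they clear their organelles, and platelets keep messenger RNA packed by megakaryocytes. Lymphocytes and monocytes have nuclei and transcribe their own antigen receptors, antigen-presenting molecules and chemokine receptors. A universal reference RNA is made from many cell lines that divide in culture, so it holds adherent, epithelial and embryonic transcripts. A ratio against it says how a gene stands in blood relative to that mixture, and a gene near 0 may be well expressed in both. In whole RNA of mixed cells, more cells of a type and more RNA per cell cannot be told apart.

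The dye that carried the blood RNA was read from the intensities, against the labels. By the labels the mononuclear RNA was in Cy5 and the reference in Cy3. The alpha globin gene Hba-a1 lay between 17.8 and 18.1 in Cy3 and between 10.3 and 11.4 in Cy5 on the 11 arrays (log2 intensity before normalisation). The Y-linked gene Eif2s3y lay between 7.25 and 8.17 in Cy3 on 5 arrays and between 5.74 and 5.89 on the other 6, while in Cy5 it stayed between 5.89 and 6.02. Xist, the X-inactivation RNA, was between 5.67 and 5.82 in Cy3 on those 5 arrays and between 5.88 and 6.27 on the other 6. The median Pearson r of the log2 intensities of a pair of arrays was 0.975 in Cy3 and 0.993 in Cy5 (across probes, which are not independent). Cy3 thus varied more between mice than Cy5. If the labels were right, every direction given here would turn round. No array had its dyes swapped, so an effect of the dye on a probe cannot be told apart from blood against reference.

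In Cy3, 36.0% to 51.5% of probes were well above background per array, against 38.4% to 45.7% in Cy5. Replicate 9 had the highest share in Cy3 and replicate 11 the lowest. Replicate 11 was also the one array scanned on the second scan day. A probe was tested where either channel was well above background on at least 6 arrays, which left 28600 of 56605 probes and 14314 named genes. The test was limma's treat, which asks whether a ratio lies beyond 1 in either direction, with Benjamini-Hochberg adjustment over all probes tested. Higher and lower in blood mean an adjusted p under 0.05 in that test.

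By this test 1475 of the 14314 genes were higher in blood, which is 10.3%, and 1132 were lower, which is 7.91%. Of the 28600 probes 2371 (8.29%) were higher and 1648 (5.76%) lower. The median gene ratio was -0.04, with quartiles at -0.47 and 0.46. The background correction adds an offset of 50 to each signal, which pulls ratios of dim spots towards 0. With the scanner software's own processed signals 3314 genes (23.2%) were higher and 3471 (24.2%) lower, and the quartiles were -1.28 and 1.21. The medians of lists with many dim genes moved with it, from 4.14 to 6.39 for the erythroid list, from 4.01 to 6.24 for platelets, from 2.18 to 4.74 for B cells, from 1.62 to 3.06 for T cells, from 1.68 to 3.19 for monocytes and from -1.39 to -2.65 for cell division.

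**Figure D1:**
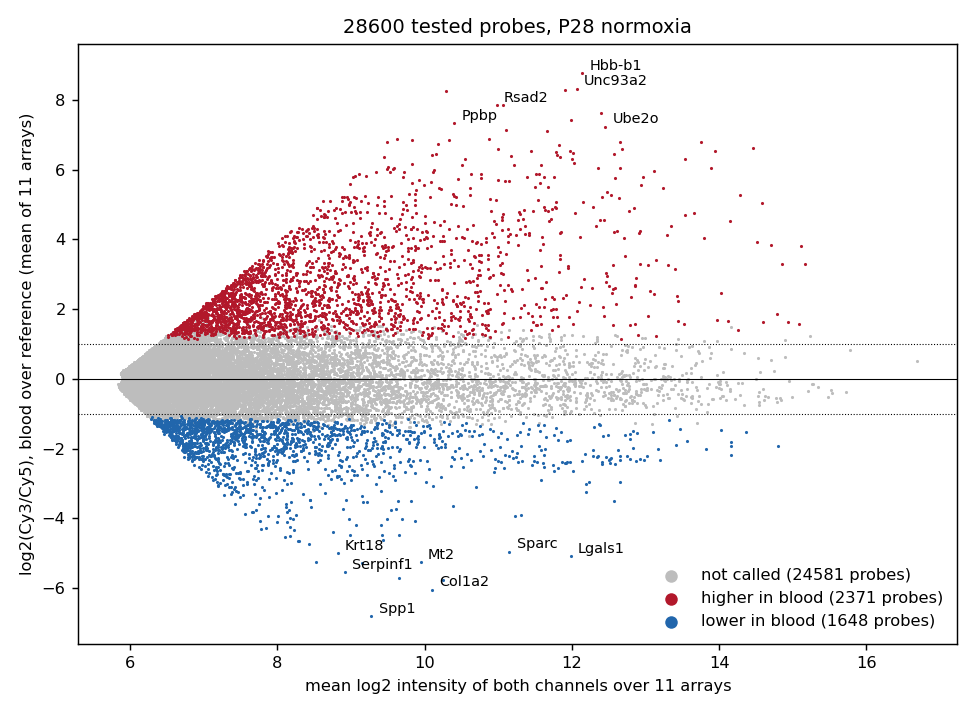
Mean log2 ratio of Cy3 (blood) to Cy5 (reference) of each of the 28600 tested probes over 11 arrays against its mean log2 intensity in both channels. Red points are the 2371 probes higher in blood and blue points the 1648 lower, the dotted lines mark ratios of 1 and -1, and the named genes are among the 10 highest and 10 lowest measured in both channels; the wedge on the left is the range that dim spots can reach with the offset of 50.

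Among genes well above background in both channels, the beta globin probe named Hbb-b1 had the highest ratio. It lay at 6.68 on the lowest array, 8.86 on the median array and 9.90 on the highest. The next were Unc93a2 (mean 8.31), Zdhhc22, named for a palmitoyltransferase motif (8.28), Gda, guanine deaminase (7.86), Rsad2, the antiviral enzyme viperin (7.85), Scd4, a stearoyl-CoA desaturase (7.43), Ppbp, the platelet basic protein (7.33), Ube2o, a ubiquitin ligase of maturing red cells (7.23), Ctla2b (7.12) and Prxl2a, a peroxiredoxin-like protein (7.10). On 8 of these 10 genes the lowest of the 11 values was that of replicate 9. At the other end, Spp1, the secreted phosphoprotein osteopontin, lay at -7.41, -6.87 and -6.20 on the lowest, median and highest array. Col1a2, a chain of type I collagen, lay at -6.66, -5.85 and -5.61. It was followed by Serpinf1 (mean -5.55), the metallothionein Mt2 (-5.26), the galectin Lgals1 (-5.09), the keratin Krt18 (-5.01), the collagen-binding protein Sparc (-4.96), the collagen chains Col1a1 (-4.65) and Col3a1 (-4.65) and the procollagen enhancer Pcolce (-4.61). The SD over the 11 arrays was 0.78 to 0.89 for the 10 highest genes and 0.33 to 0.43 for the 10 lowest. Replicate 9 decided much of the former after loess. Leaving replicate 9 out, the SD of the high genes was 0.35 (Scd4) to 0.89 (Ppbp) and that of the low genes 0.27 to 0.35. Without normalisation the adult globin mean of replicate 9 was 6.37, inside the range of 6.32 to 7.51 over the 11 arrays. Its mean for genes of red cell maturation was then 4.41, the lowest, with 4.49 on replicate 11. After loess that mean was 2.56.

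**Figure D2:**
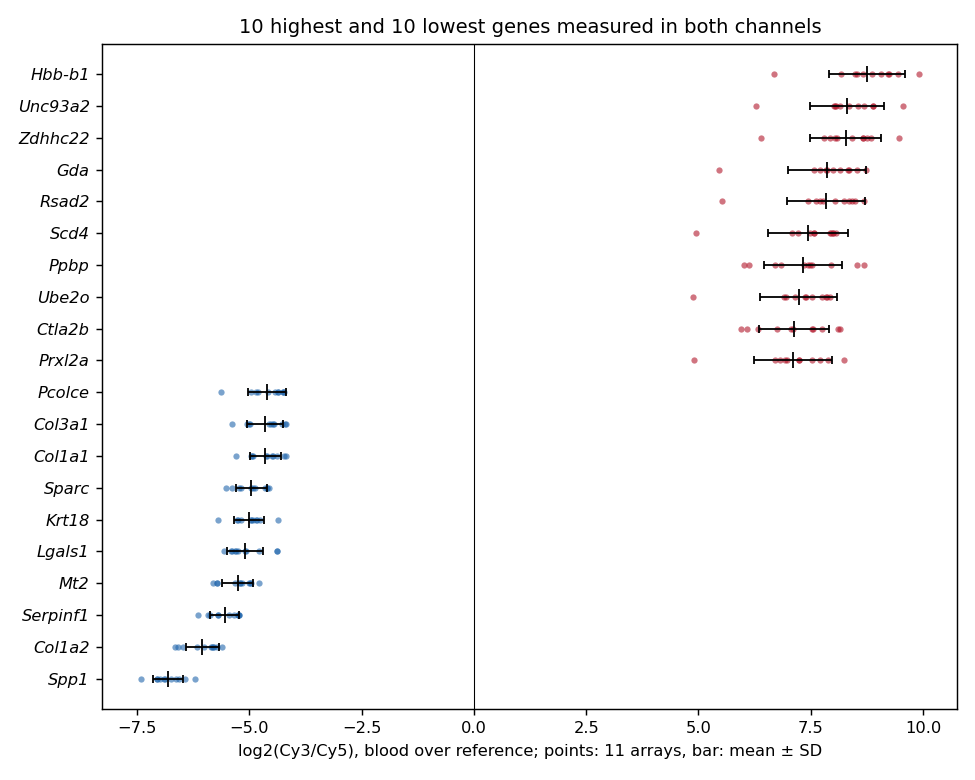
Log2 ratio of Cy3 (blood) to Cy5 (reference) of the 10 highest and 10 lowest genes measured in both channels. Each point is 1 of 11 arrays and the bar is the mean ± SD; the leftmost red point of 8 of the 10 high genes is replicate 9, and no value of a low gene lies above -4.18.

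**Figure D3:**
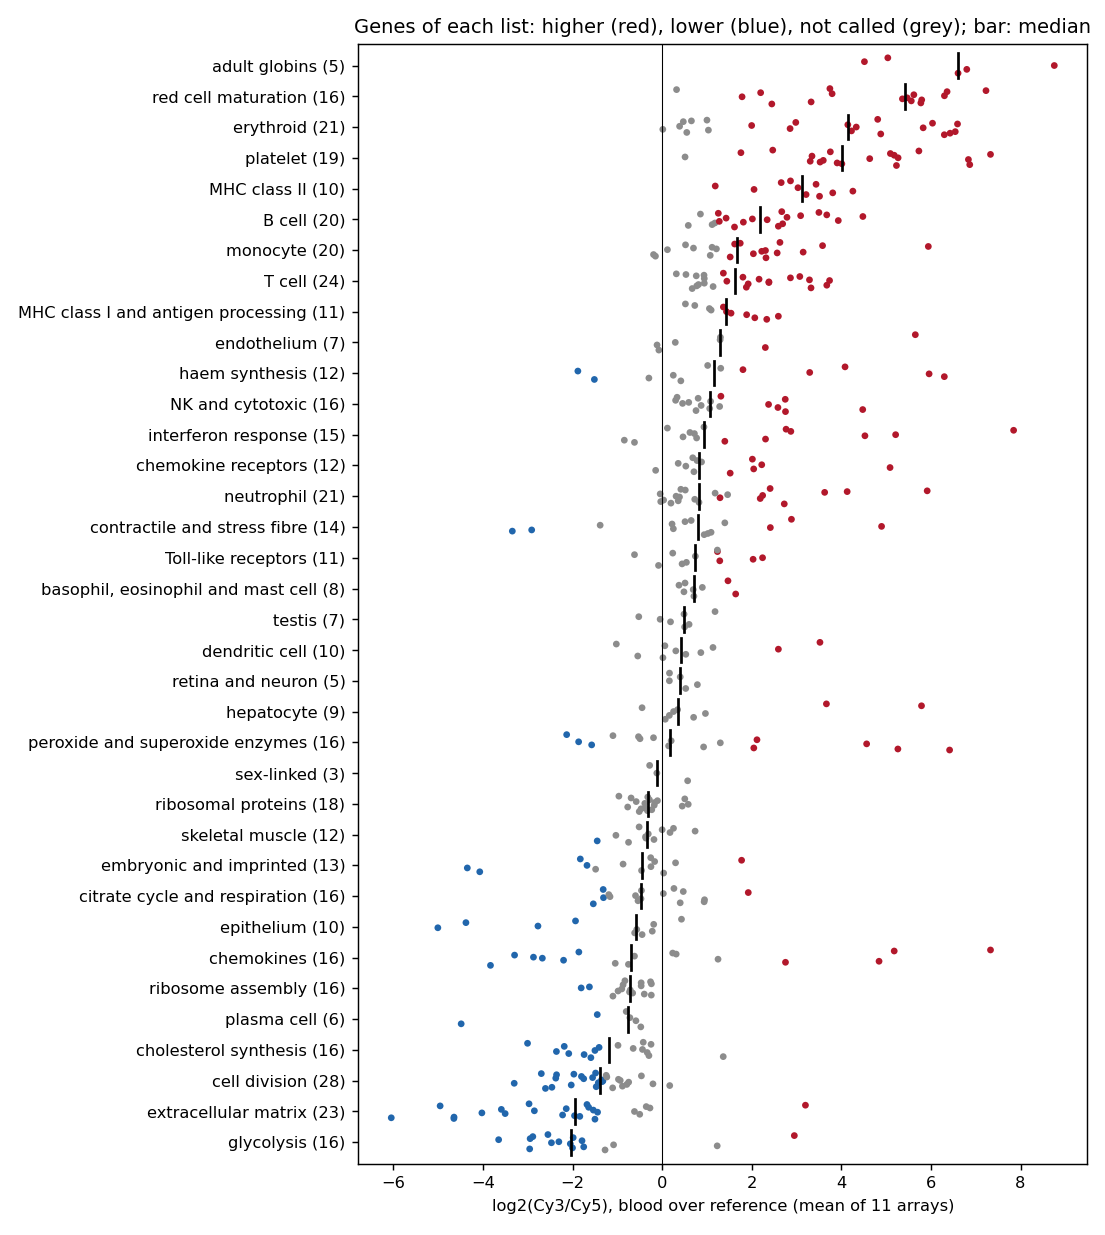
Mean log2 ratio of Cy3 (blood) to Cy5 (reference) over 11 arrays for the tested genes of each list, with the number of tested genes in brackets. Red points are genes higher in blood, blue points genes lower, grey points genes not called, and the black bar is the list's median; lists of red cells and platelets stand at the top and those of glycolysis, extracellular matrix and cell division at the bottom. Globins and sex-linked genes served to read the dye, so their colours are a description.

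The red cell programme led the blood side. All 5 matched adult globin genes had mean ratios between 4.52 and 8.75, given as a description because globins served to read the dye. Near-identical globin copies share sequence, so signals of Hba-a1 and Hba-a2, or of Hbb-b1, Hbb-b2 and Hbb-bt, may not be separable. The embryonic globins Hbb-y and Hbb-bh1 were not called, and neither was well above background in the reference on any array. They are known only to be at least 2.32-fold and at least 1.65-fold higher in blood. Hba-x and Hbb-bh2 were not tested. Of 21 tested genes of the erythroid list 14 were higher in blood and 0 lower, with a median ratio of 4.14. The software's signals put 19 of the 21 higher and 0 lower, so some genes not called in the main test were called there. Slc4a1, the band 3 anion exchanger of the red cell membrane, lay at 4.81, 6.15 and 6.82 on the lowest, median and highest array (mean 6.04, SE 0.16; adjusted p 1.12e-10). Slc25a37, the mitochondrial iron importer, averaged 6.59, Car2, a carbonic anhydrase, 6.54, and Bpgm, which makes the haemoglobin effector bisphosphoglycerate, 6.43. Regulators and receptors of earlier erythroid cells were measured as well. Gata1, the erythroid and megakaryocytic transcription factor, had a ratio of 2.86 (SE 0.14; adjusted p 1.63e-07). Klf1, the other main erythroid factor, had 0.39 and was not called, nor were the transferrin receptor Tfrc (0.65), the erythropoietin receptor Epor (1.03) and Ermap (0.01). Klf1 was well above background in blood on all 11 arrays and on 0 in the reference, so it is known only to be at least 1.30-fold higher in blood and cannot be ranked against the others.

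Genes of haem synthesis differed in their ratios. Alas2, the erythroid enzyme of the first step, lay at 4.46, 6.42 and 7.42 (mean 6.30, SE 0.23; adjusted p 1.45e-09), while its housekeeping form Alas1 had a mean of -0.30 and was not called. Fech, which inserts the iron, averaged 5.96, Urod 4.08 and Ppox 1.80, all higher in blood. Alad, the enzyme of the step after Alas2, was lower in blood at -1.51 (SE 0.05; adjusted p 3.19e-06), with no array above -1.31. Hmox1, which breaks haem down, was also lower at -1.88 (SE 0.13; adjusted p 1.38e-04). The 12 genes counted 5 higher, 2 lower and 5 not called. Under median centring and without normalisation 7 were higher and 0 lower, so both lower calls were lost there. Of 16 genes linked to the clearance of organelles and proteins in maturing red cells 15 were higher, with a median ratio of 5.42. They included the ubiquitin enzymes Ube2o (7.23) and Ube2l6 (6.36), Tent5c, a poly(A) polymerase (6.30), and Bnip3l, the mitophagy receptor (5.77). The autophagy kinase Ulk1 was the exception at 0.32.

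Of 16 tested genes of peroxide and superoxide enzymes 5 were higher in blood and 3 lower, with a median of 0.17. Of the lower calls 1 was left under median centring and 0 without normalisation. Catalase (Cat) lay at 4.02, 6.71 and 7.14 (mean 6.42, SE 0.24; adjusted p 1.36e-09), the glutathione peroxidase Gpx1 averaged 5.26 and peroxiredoxin Prdx2 4.56. These are abundant red cell proteins. The thioredoxin reductase Txnrd1 (-2.13), Prdx4 (-1.86) and Prdx1 (-1.57) were lower, and the superoxide dismutases Sod1 (-0.49) and Sod2 (-0.19) were not called.

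Promoter sequence of the erythroid genes is shown because the AGATAA motif is bound by GATA factors, and Gata1 itself was higher in blood. The RefSeq promoter table (GRCm38.p6, 250 bases before to 50 after each start) held 14 of the 21 matched erythroid genes, and 5 of these had AGATAA on either strand, which is 35.7%. The share was 12.7% over all 27025 genes in the table, 8.96% among genes tested, 12.3% among genes higher in blood and 6.04% among genes lower. It was 15.4% (2 of 13) for the genes of red cell maturation, 26.7% (4 of 15) for platelet genes and 27.3% (3 of 11) for interferon-response genes, so it was not particular to the erythroid list. No test was made of these shares, and a match is a description of letters. The 200 bases before the start of Alas2 at chrX:150547217-150547416 (plus strand) and of Kel, the Kell blood group glycoprotein, at chr6:41704326-41704525 (minus strand) follow 5′ to 3′, with the motif or its reverse complement TTATCT in capitals. The match began 86 bases before the start in Alas2 and 56 bases before it in Kel, whose mean ratio was 4.33.
Alas2: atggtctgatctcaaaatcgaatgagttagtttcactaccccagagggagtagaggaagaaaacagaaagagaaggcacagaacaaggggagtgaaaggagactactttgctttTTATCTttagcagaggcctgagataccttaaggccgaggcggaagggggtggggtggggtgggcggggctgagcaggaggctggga
Kel: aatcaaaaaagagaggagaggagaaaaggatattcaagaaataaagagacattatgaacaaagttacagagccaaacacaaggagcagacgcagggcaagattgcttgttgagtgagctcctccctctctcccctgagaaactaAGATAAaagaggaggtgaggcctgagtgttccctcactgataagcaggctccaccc

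Platelet transcripts were also high in blood. Of 19 genes 18 were higher in blood and 0 lower, with a median ratio of 4.01. Ppbp lay at 6.01, 7.44 and 8.68 on the lowest, median and highest array (mean 7.33, SE 0.24; adjusted p 4.08e-10). Clec1b, the podoplanin receptor, averaged 6.87 and Gp9, a subunit of the von Willebrand factor receptor, 6.84. The ligand on the other side of Clec1b, podoplanin (Pdpn), was well above background in the reference on 11 arrays and in blood on 0, and was lower in blood by at least 18.7-fold. Platelet signal differed between mice. The list's mean ratio was 2.96 on replicate 1 and 5.49 on replicate 2, with 4.43 on the median array. Vwf, von Willebrand factor, which both platelets and endothelium make, averaged 5.65. Esam, a junction protein also found on platelets, was higher as well at 2.30, and the other endothelial genes tested, Plvap (1.30), Pecam1 (1.29), Kdr (at least 1.19-fold higher, the reference being at background), Eng (-0.07) and Flt1 (-0.11), were not called. The median of the 7 tested was 1.29. Under median centring 4 of them were higher and with the software's signals 5, and 6 of the 13 endothelial genes, Cdh5 and Tie1 among them, did not reach the detection filter. Of 14 contractile and stress fibre genes 3 were higher, 2 lower and 9 not called. Myl9, the regulatory myosin light chain, averaged 4.90, the adhesion protein Zyx 2.89 and filamin Flna 2.41, whereas the matrix-associated Ccn1 (-3.35) and Ccn2 were lower, the latter by at least 7.19-fold with blood at background. The actin gene Acta2 was not called on its brightest probe (0.94), and its lowest probe was lower at -3.76.

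Lymphocyte genes were higher in blood in several groups. Of 20 B cell genes 16 were higher in blood and 0 lower, with a median ratio of 2.18. Fcmr, the receptor for IgM, lay at 3.89, 4.44 and 4.93 (mean 4.48, SE 0.08; adjusted p 7.88e-12). Cd79b, a signalling chain of the B cell receptor, averaged 3.93 and Ms4a1, the CD20 antigen, 3.67. Of 6 tested plasma cell genes 2 were lower, 0 higher and 4 not called, with a median of -0.76. Jchain, which links secreted IgM and IgA, was lower in blood, between -4.99 and -4.12 (mean -4.49, SE 0.08; adjusted p 6.57e-12), and Sdc1, the plasma cell surface proteoglycan, had -1.45. Without normalisation 1 of the 6 was lower. Of 24 T cell genes 14 were higher, with a median of 1.62. Cd8b1, a chain of the CD8 coreceptor, averaged 3.74, the T cell receptor subunit Cd3d 3.67 and the adhesion molecule Cd2 3.32, while Bcl11b (0.67) was not called. Trat1 and Ubash3a, also not called, were at background in the reference on every array. They are known only to be at least 1.42-fold and at least 1.23-fold higher in blood. Both were called higher with the software's signals, as was Bcl11b, and the count was then 18 of 24. Cd4 (0.94), Lat (0.94), Thy1 (0.93), Cd3e (0.81), Cd28 (0.77) and Tcf7 (0.76) were well above background in both channels on all 11 arrays. Those genes were called in neither setting. Of 16 genes of natural killer and cytotoxic cells 6 were higher, with a median of 1.07. Gzma, a granzyme measured in both channels, averaged 4.48. With the software's signals 15 of the 16 were called higher. Of the 16, 7 were well above background in blood on at least 6 arrays and on none in the reference. The 7 passed the detection filter through blood alone, so the count of 15 cannot be set against the share of all genes. Only a bound is known for the 7. It ran from at least 1.19-fold (Ncr1) to at least 5.13-fold higher (Klrd1), and these genes have no rank.

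All 10 class II antigen-presentation genes were higher in blood, with a median ratio of 3.12. H2-Ab1, a class II beta chain, lay at 2.89, 4.48 and 4.72 (mean 4.26, SE 0.15; adjusted p 2.31e-09). H2-Aa averaged 3.81, the invariant chain Cd74 3.51 and their transactivator Ciita 3.21. Of 11 class I genes 7 were higher, with a median of 1.44. Among them H2-K1, a classical heavy chain, averaged 2.59 and varied little, from 2.40 to 2.77. B2m, the light chain, averaged 2.33 and H2-D1 2.07.

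Myeloid genes were measured beside a red cell and platelet signal in the same arrays. Of 20 monocyte genes 12 were higher, with a median ratio of 1.68. The lysozyme Lyz1 lay at 4.86, 5.83 and 6.76 (mean 5.94, SE 0.18; adjusted p 3.05e-10), Lyz2 averaged 3.58 and the cathepsin Ctss 3.15. The lysosomal antigen Cd68 (-0.19), the lipopolysaccharide coreceptor Cd14 (-0.15) and the Fc receptor Fcgr1 (0.12) were not called. A density gradient is meant to remove neutrophils, yet 8 of 21 neutrophil genes were higher in blood and 0 lower, with a median of 0.82. Of the 21, 11 were well above background in blood alone, and with the software's signals 15 were higher and the median was 4.39. The calprotectin subunits S100a9 and S100a8, which monocytes also express, averaged 5.92 and 4.13. Retnlg, a resistin-like protein of neutrophils, averaged 3.63, and with the reference at background it is known only to be at least 12.3-fold higher. Mmp9 (-0.04), Csf3r (-0.03) and Elane (0.03) were not called. Dendritic cell genes included Zbtb46, at least 11.5-fold higher, which erythroid progenitors also express, and Irf8 at 2.59, with 2 of 10 higher in all, against 5 with the software's signals. Of 8 tested genes of basophils, eosinophils and mast cells the mast cell proteases Cma1 and Tpsb2 (1.47) were higher. Cma1 was at background in the reference on every array, so its ratio has no measured size and no rank. Prss34 and Cpa3, both genes of basophils and mast cells, were at background in the reference on every array. They are known only to be at least 1.28-fold and at least 1.38-fold higher in blood. Ccr3 and Siglecf were at background in the reference on every array as well. All 8 were called higher with the software's signals. Cma1, Prss34, Cpa3, Ccr3 and Siglecf passed the detection filter through blood alone, so that count cannot be set against the share of all genes.

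Chemokines and their receptors were uneven. Of 12 receptors 5 were higher in blood, 0 lower and 7 not called, with a median ratio of 0.83. With the software's signals 10 were higher and 1, Ccr4 (main ratio -0.15), lower, and the median was 4.19. Ccr7, which guides lymphocytes to lymph nodes, varied little, with 4.71, 5.04 and 5.54 on the lowest, median and highest array (mean 5.09, SE 0.07; adjusted p 1.00e-12). Cx3cr1, of nonclassical monocytes and killer cells, averaged 2.22. Ccr6, at background in the reference on every array, is known only to be at least 4.12-fold higher. Of 16 chemokines 4 were higher and 6 lower. The higher ones were the platelet chemokines Ppbp (7.33) and Pf4 (5.18), with Ccl6 (4.84) and Ccl5 (2.75). The monocyte attractant Ccl2 lay between -4.40 and -3.15 (mean -3.83, SE 0.11; adjusted p 3.86e-10), Cxcl12, the stromal ligand of Cxcr4, averaged -3.30 and Cxcl1 -2.87. Cx3cl1, the ligand of Cx3cr1, was well above background in the reference on 11 arrays and in blood on 0, and was lower in blood by at least 6.19-fold. The median over the chemokines was -0.69, and it turned to 0.31 over the 11 chemokines left when both channels had to be well above background. Of 11 Toll-like receptor genes 4 were higher, led by Tlr13 (2.24) and Tlr12 (2.03), sensors of microbial RNA and protein, and Tlr4 (-0.62) was not called. By the software's signals 6 were higher and Tlr4 was lower (-2.92).

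Interferon-response genes were higher in part. Of 15 tested genes 7 were higher in blood and 0 lower, with a median ratio of 0.93. Counts from the software's signals were 8 higher and 2 lower, and the median was 2.06. Rsad2 lay at 5.53, 8.03 and 8.69 on the lowest, median and highest array. The ubiquitin-like modifier Isg15 averaged 5.21 (SE 0.23; adjusted p 1.07e-08) and the transcription factor Irf7 4.53 (SE 0.17; adjusted p 2.96e-09). Ifi44 (-0.85), the chemokine Cxcl10 (-0.62) and Usp18, which removes Isg15 (0.12), were not called, but Ifi44 (-3.47) and Cxcl10 (-2.45) were the lower genes with the software's signals. The members of one response were therefore far apart in these ratios. The promoters of Isg15, Rsad2 and Ifit1 are shown because the letters of the interferon-stimulated response element, GAAA, then 2 bases of any kind, then GAAA, stand in them. The table held 11 of the 17 listed genes, and 7 of these had the motif on either strand, which is 63.6%, against 3.99% over all genes in the table, 6.07% of the genes higher in blood and 3.31% of those lower. Genes with the motif and a ratio below 1 included Cxcl10, Ifit3 (0.47) and Oas1a (0.72). The 200 bases before each start are written 5′ to 3′, at chr4:156200819-156201018 (minus strand) for Isg15, chr12:26456453-26456652 (minus strand) for Rsad2 and chr19:34640689-34640888 (plus strand) for Ifit1, with the motif or its reverse complement in capitals; overlapping matches run together in Isg15. Ifit1, an RNA-binding antiviral protein, averaged 2.31.
Isg15: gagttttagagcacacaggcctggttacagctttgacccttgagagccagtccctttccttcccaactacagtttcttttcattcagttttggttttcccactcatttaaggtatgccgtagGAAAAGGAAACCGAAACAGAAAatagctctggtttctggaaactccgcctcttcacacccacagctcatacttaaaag
Rsad2: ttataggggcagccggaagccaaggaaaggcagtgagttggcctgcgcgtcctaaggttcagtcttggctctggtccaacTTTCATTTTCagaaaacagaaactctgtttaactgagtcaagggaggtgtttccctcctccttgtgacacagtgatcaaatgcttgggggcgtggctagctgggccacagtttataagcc
Ifit1: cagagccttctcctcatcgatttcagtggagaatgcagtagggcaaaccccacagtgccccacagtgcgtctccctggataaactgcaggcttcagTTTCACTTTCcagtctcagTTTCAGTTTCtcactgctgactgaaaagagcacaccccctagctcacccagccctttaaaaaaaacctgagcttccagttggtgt

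Extracellular matrix genes were mostly on the reference side. Of 23 genes 18 were lower in blood and 1 higher, with a median ratio of -1.96. The software's signals put 21 of them lower, with a median of -4.97. Beside Col1a2, Sparc and Col1a1, the proteoglycan Dcn averaged -4.03 and Col6a1 -3.51. For 7 of the 23, among them Lox, the collagen cross-linking oxidase, blood was not well above background on any array, and Lox was lower by at least 11.3-fold. Tgfbi, a matrix protein that monocytes make, was the exception on the blood side, at 2.42, 3.44 and 3.92 on the lowest, median and highest array (mean 3.20, SE 0.15; adjusted p 5.46e-08). Fn1, fibronectin, averaged -0.62 but ranged from -3.06 to 1.43 between mice. Of 10 tested epithelial genes 4 were lower, namely the keratins Krt18 (-5.01), Krt8 (-4.38) and Krt19 (-2.77) and the desmosomal Perp (-1.93). Counts from the software's signals were 8 lower and 1 higher. Of 13 embryonic and imprinted genes 4 were lower, against 9 with the software's signals. The chromatin protein Hmga2 averaged -4.35, the Notch ligand homologue Dlk1 -4.07 and the pluripotency factor Nanog -1.83. The RNA-binding protein Igf2bp1, at background in blood, was lower by at least 3.16-fold. Mest, an imprinted hydrolase, was higher at 1.77 (SE 0.21; adjusted p 0.0111) on its brighter probe, and the other probe, at 0.23, was not called.

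Genes of dividing cells were lower in blood. Of 28 cell division genes 17 were lower and 0 higher, with a median ratio of -1.39. Cdc20, which activates the anaphase-promoting complex, lay at -3.90, -3.36 and -2.65 on the lowest, median and highest array (mean -3.30, SE 0.11; adjusted p 3.12e-09). Top2a, the topoisomerase of mitosis, averaged -2.70 and the mitotic kinase Aurka -2.61. Ccne1 (-0.21) and Mki67 (-0.46) were not called. The brighter probe of Ccna2, at 0.17, was not called either, but its other probe was lower at -1.21. The count of lower genes ranged from 4 to 27 over the settings tried, and that of higher genes was 0 in each of them.

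Glycolysis had a median ratio of -2.03, with 12 of 16 genes lower and 1 higher. Pgam1, phosphoglycerate mutase, lay at -4.09, -3.62 and -3.09 (mean -3.65, SE 0.09; adjusted p 1.46e-10), enolase Eno1 averaged -2.96 and Pgk1 -2.95. The glucose transporters were opposed. Slc2a1 averaged -2.89 and was lower, while Slc2a3, the transporter of leukocytes and platelets, averaged 2.95 and was higher on its brighter probe (SE 0.21; adjusted p 5.51e-06), its other probe having 0.37. Hexokinase Hk1 (1.23) was not called. Gapdh, often taken as a constant reference gene, was lower in blood at -2.00 (SE 0.12; adjusted p 1.05e-05), between -2.55 and -1.37. Of 16 genes of the citrate cycle and respiratory chain 3 were lower, Uqcrc1 (-1.32) and Fh1 (-1.31) among them, and the dehydrogenase Ogdh was higher at 1.92. Under median centring and without normalisation 0 of the 16 were lower. Of 16 genes of cholesterol synthesis 8 were lower and 0 higher, led by squalene epoxidase Sqle (-3.01), Hmgcs1 (-2.36) and Msmo1 (-2.19). With the software's signals 13 were lower and 0 higher, under median centring 5 were lower and 1 higher, and without normalisation 2 were lower and 1 higher. Of 18 ribosomal protein genes 0 were called in either direction by treat, with ratios from -0.97 to 0.58. Their median of -0.33 turned positive under median centring and without normalisation, so no direction is given for them. Of 16 factors that build ribosomes 2 were lower, Nop58 (-1.81) and Npm1 (-1.62), a share near the 7.91% of all genes that were lower. Under median centring and without normalisation 0 were lower. The software's signals put 8 of the 16 lower, with a median of -1.20, where 24.2% of all genes were lower. A normexp offset of 1 put 4 of them lower.

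Detection separated the channels for some genes altogether. By their representative probe 990 genes (6.92%) were well above background in Cy3 on at least 6 arrays and in Cy5 on 0, and 623 genes (4.35%) the other way round. Only a bound on the fold can then be given, taken from the lowest signal well above background in the empty channel, and open to dye bias since no dyes were swapped. The greatest bounds on the blood side were Apol11b, an apolipoprotein L family gene, at least 109-fold higher, Rgs18, a G-protein regulator of platelets, at least 34.1-fold, Gja3, a connexin, at least 29.6-fold, Epb42, the red cell membrane protein 4.2, at least 18.7-fold, and Olfr787, an olfactory receptor gene, at least 18.3-fold. The log2 ratio of Apol11b ranged from 3.87 to 8.22 between mice, but with the reference at background these ratios have no measured size. On the reference side they were Pdpn at least 18.7-fold, the fibulin Efemp1 at least 13.9-fold, Lox at least 11.3-fold, the interferon-inducible Ifi202b at least 9.38-fold and the complement protease C1s1 at least 7.81-fold lower in blood.

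Genes of solid tissues were listed as well. Of all 22911 genes with a symbol on the array 14314 were tested, so an untested gene is common and says little of a tissue. Of 21 hepatocyte genes 12 did not reach the detection filter, Alb and Apob among them, yet the protease inhibitor gene Serpina1b, 1 of several near-identical copies, averaged 5.79 and transferrin (Trf) 3.67, both higher in blood. Of 17 skeletal muscle genes 12 were tested, 0 were higher and 1 was lower, where 7.91% of all tested genes were lower. Of 15 genes of retina and neurons 5 were tested and 0 called, and of 16 testis genes 7 were tested and 0 called. With the software's signals 23.2% of all genes were higher and 24.2% lower. Of the 9 hepatocyte genes tested 5 were then higher and 1 lower, and the median moved from 0.34 to 1.54. Of the muscle genes 1 was higher and 8 were lower. Of the genes of retina and neurons 2 were higher, and 4 testis genes were higher and 1 lower. All 5 tested genes of retina and neurons and 6 of the 7 testis genes were well above background in blood. Their counts thus cannot be set against the share of all genes.

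Some genes differed widely between mice. The median SD of a gene's ratio over the 11 arrays was 0.22, and 81 genes had an SD above 1, of which 57 were higher in blood. The called genes with the largest SD were C4b, complement component 4 (SD 1.95), Retnla, a resistin-like protein of alternatively activated macrophages (1.87, but 0.96 with the software's signals), Cd5l, a secreted macrophage protein (1.76), Prg4, the proteoglycan lubricin (1.70), C2cd4c (1.42, with the reference at background on every array), Plxdc2 (1.40), Cfp, properdin (1.37), and Alox15, a lipoxygenase of resident macrophages and eosinophils (1.36, with the reference at background on every array). In 7 of these 8 genes, all but C2cd4c, the 5 highest values lay on the same 5 arrays, replicates 1, 2, 8, 10 and 11, and the 3 lowest on replicates 3, 4 and 6. C4b ran from -0.37 to 5.46 and Retnla from 0.36 to 5.64. Transferrin (Trf), of the hepatocyte list, had its 5 highest and 3 lowest values on the same arrays, from 1.71 to 5.17. The subunits of complement C1q, chosen after these values were seen, followed the same arrays. C1qc lay between 0.03 and 3.83, C1qb between 0.70 and 3.74 and C1qa between -0.07 and 3.60. Adgre1, a surface receptor of macrophages from the monocyte list, lay between 0.83 and 3.87. The 5 arrays lay on 5 slides, and the source of the difference was not tested.

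Other lists singled out 1 array. The neutrophil list had its highest mean on replicate 4, 2.64 against 1.10 to 1.56 on the other 10. Without normalisation the mean was 2.87 on replicate 4 and 2.78 on replicate 9. The software's signals gave 5.09 on replicate 4 against 3.25 to 3.96 on the other 10. On replicate 4 S100a8 reached 6.81 and Camp, the cathelicidin of neutrophil granules, 4.51, against medians over arrays of 4.13 and 2.59. The killer cell list had its highest mean on replicate 9, 2.62 against 1.01 to 1.68 on the others. Gzma was at 5.56 there and at 3.13 on the lowest array. Replicate 9 was also lowest for erythroid genes, with a list mean of 2.03 against 3.18 to 3.90, and for globins, with 4.38 against 5.75 to 7.45. Without normalisation its erythroid mean was 3.41 against 3.62 to 4.39, still the lowest, while its globin mean of 6.37 was not. Leaving replicate 9 out gave 2499 probes higher and 1732 lower, against 2371 and 1648. The platelet list ran from 2.96 on replicate 1 to 5.49 on replicate 2. Replicate 1 was also the lowest without normalisation (3.54) and with the software's signals (5.20). The highest array changed to replicate 9 without normalisation (5.84) and to replicate 11 with the software's signals (7.46).

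Probes of a gene did not always give the same ratio. Of 173 genes named or listed here with more than 1 tested probe, 0 had probes called in opposite directions, and 60 had a call on some probes but not on others. Over all genes, 6 of the 368 called genes with more than 1 called probe had opposite calls. The gene's brightest probe over both channels was used throughout. For Rsad2 the probes gave 5.21 and 7.85, for Serpinf1 -5.55 to -2.12, and for the integrin Itgb3 0.76 and 5.27.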

How the data were processed

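The deposited scanner files hold, per the file headers, output of Agilent Feature Extraction 10.7.3.1 run by the authors: median and background intensity of both dyes for 62976 spots. A series matrix of log2 ratios deposited by the authors matched log2(Cy3/Cy5) of the software's processed intensity with r of 1.00 on each array and per-array medians from -0.18 to -0.04. It was used as an alternative.

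With limma 3.58.1 (R 4.3.3), the normexp method with an offset of 50 was applied to the median signals, followed by loess within each array. Control spots and outlier-flagged spots (0.276%) were left out, no other spot was saturated, and spots of a probe were averaged. Accessions of 32994 of 56605 probes matched symbols of 22911 genes in a RefSeq table (GRCm38.p6). A gene was represented by its tested probe with the highest mean log2 intensity of both dyes. Each ratio was tested with treat at 1, intercept only, Benjamini-Hochberg threshold 0.05. On simulated ratios for 28600 probes, 83% of probes moved by 1.5 and 100% of those moved by 3 were recovered, with 0 false calls. The probes left unmoved lay inside the bound of 1, so false calls at ratios near 1 were not tested. Bounds came from each channel after loess and Aquantile. The precision is limited by the number of arrays.

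The arrays, gene lists and tests were chosen with earlier results of these data known. Named genes are the 10 highest and 10 lowest called genes measured in both channels, the 5 greatest bounds per channel, up to 3 highest and 3 lowest of each list, genes with a bound, globins, sex-linked genes and the 8 called genes with the largest SD. Others named here (such as Camp, C1q genes, Trf between arrays, Pdpn beside Clec1b, Gapdh, Gata1 and the further list members) were chosen after their values were seen. Some genes chosen by the rule are not reported here.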

Additional observations from a re-analysis of the deposited data

How the results depend on the processing

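The probe counts, 2371 higher and 1648 lower in blood, depended on the null and the signal. Against a ratio of 0 (eBayes) they were 11791 and 11852, and beyond 2 (treat) 869 and 277. They were 6768 and 6061 with the software's signals, 6768 and 6057 with the authors' matrix, and 5493 and 4022 with a normexp offset of 1, an alternative chosen after seeing the data. Median centring gave 2931 higher and 778 lower and no normalisation 3166 and 642, so that 79.0% and 83.1% of calls were higher, against 59.0% with loess. These scalings moved the median of all probes by 0.17 and 0.27. Without any 1 array there were 2278 to 2499 higher and 1589 to 1732 lower. Slide as a random block gave 2335 and 1622, and scan day 2233 and 1558. Of 519 genes named or listed, 273 had a call, and 0 were called in the opposite direction in a setting they were tested in. Up to 117 of the 273 calls were lost (treat beyond 2). The sign of ratios without a call is not covered by this count. The list medians that changed sign were those of chemokines, citrate cycle, ribosomal proteins and sex-linked genes. The ratio within an array already pairs blood with reference. Spots near background limit the ratios of dim genes, and no array had its dyes swapped.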
